A study of Mus musculus with 24 samples.

Results

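Potassium channel genes were taken from the count table as those whose symbol is KCN followed by letters and a number and whose mean level over all 24 libraries reached 1 CPM (counts per 1000000 counts of a library). Of 51733 genes in the table, 91 had such a name and 71 of these reached the level. They comprise 26 pore-forming subunits of voltage-gated channels (Kv), 9 modifying Kv subunits, 7 accessory Kv subunits, 11 inward rectifiers (Kir), 9 subunits with paired pore domains (K2P), and 9 genes of the calcium-activated and Slo families. None of the 4 Kcne accessory genes reached the level. The members nearest to it were Kcnh6 (mean 1.15 CPM) and Kcnj8 (1.34 CPM), and just outside lay Kcnh8 (0.759 CPM) and Kcne4 (0.536 CPM).

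RNA was sequenced from the hippocampi of 12 adult male C57BL/6 mice (2 to 3 months old), and from each mouse there was an immunoprecipitate (IP) of tagged ribosomes and an input of the whole lysate. The series' design text names RiboTag, a ribosomal protein with an epitope tag that Cre recombinase switches on, and the lysate was incubated with an antibody to the HA epitope. Conditional knock-in mice (eIF2α cKI, here cKI) were eIF2α A/A, in which alanine replaces the phosphorylated serine of this translation initiation factor, and carried a floxed eIF2α transgene (fTg) together with Cre under the CaMKIIα promoter. Control mice, labelled standard CaMKIIα-Cre+, carried the same Cre without the knock-in. Mice of each genotype were taken 1 h after fear conditioning (FC) or naive, which with the 2 fractions makes 8 groups of 3 libraries. Hippocampi of 1 mouse were pooled, so each replicate is 1 animal, and within a fraction the p-values measure the spread among mice. Comparisons of IP with input were fitted without a block for the mouse, unless stated. Their p-values leave out that an IP and its input come from the same animal. The CaMKIIα promoter is active in excitatory forebrain neurons, and the same Cre switches the knock-in and the ribosome tag, so an IP samples the cells in which Cre acted and does not cover every cell type of the tissue.

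Potassium channels set the resting potential, repolarise the membrane after an action potential and limit firing. Kv channels are tetramers of pore-forming subunits, and modifying subunits join pore-forming ones without making channels by themselves, while accessory subunits alter trafficking and gating. Kir and K2P channels act near rest, and some Kir channels of astrocytes clear potassium that neurons release.

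Total counts were 30.6 to 43.5 M in IPs and 28.8 to 37.7 M in inputs, where 1 count equals 0.035 CPM at the lowest depth. Levels below are CPM on library sizes scaled by TMM (trimmed mean of M values), and they are not compared between genes because gene lengths were not used. Summed levels of 8 excitatory neuron markers (Slc17a7, Camk2a and others) were 12100 to 13300 CPM in IPs and 5650 to 6530 CPM in inputs. The 7 astrocyte markers summed to 530 to 746 CPM in IPs and 3600 to 4330 CPM in inputs, the 9 inhibitory neuron markers to 174 to 378 and 1070 to 1310 CPM, and the 7 microglia markers to 25.4 to 34.9 and 375 to 496 CPM. Oligodendrocyte, endothelial and mural markers were lower in IPs in 7 of 7, 5 of 5 and 5 of 5 genes, while markers of CA1 and CA3 pyramidal cells were higher in 5 of 5 and 6 of 6 genes and those of dentate granule cells in 2 of 8. No marker was at 0 in any group. Eif2s1, which encodes eIF2α, lay at 50.2 to 55.9 CPM in cKI IPs against 44.0 to 50.5 CPM in control IPs, and at 35.1 to 40.8 CPM in cKI inputs against 29.9 to 33.4 CPM in control inputs. Reads of its mutant, normal and transgene copies fall into 1 row, so it does not check the genotype. Replicate 2 of the naive control inputs held the lowest input value of 23 of the 71 members and the highest of 16, and among IPs replicate 2 of the cKI group at 1 h and replicate 2 of the naive cKI group held the lowest of 20 and 19. The labels also give the sequencing lane: all 6 cKI inputs and 2 naive control inputs ran in lane 4, the other inputs and 4 cKI IPs in lane 5, and the other 2 cKI IPs with all 6 control IPs in lane 6.

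In IPs against inputs, potassium channel genes divided within each of the 6 classes. The A-type current gene Kcnd2, its partners Kcnip4 and Kcnip2, the beta subunits Kcnab1 and Kcnab2, and the G-protein-gated rectifier Kcnj3 were higher in IPs, while the astrocyte and vessel rectifiers Kcnj10, Kcnj16 and Kcnj8 fell by 3.93 to 4.44 on the log2 scale. Of 71 members 34 were higher and 30 lower by edgeR at an adjusted p under 0.05, which is 90.1% of members, and 85.9% of all 17453 genes tested passed the same rule (42.8% higher and 43.1% lower). The median log2 fold change was 0.08 over members and -0.01 over all genes tested. In 16 members each of the 12 IPs lay above each of the 12 inputs, and in 17 each lay below. Together that is 33 of 71, where 47.8% of all genes had fractions without overlap. With counts scaled to the library total in place of TMM, the median of all genes moved by -0.31 and the split became 21 higher and 36 lower. Under that scaling 12 members with changes of at most 0.28 turned negative, namely Kcna2, Kcnh1, Kcnj2, Kcnj6, Kcnj9, Kcnk1, Kcnk2, Kcnmb4, Kcnn2, Kcnq5, Kcns1 and Kcnu1. With lane as a covariate 23 members were higher and 19 lower, and the share of all genes in that fit is not given here. Lane 4 held inputs alone and lane 6 IPs alone. With group means in the fit, lane varied only within the naive control inputs and the cKI IPs at 1 h. Lane and fraction can thus hardly be told apart, and a call lost with lane, here and below, does not show an effect of lane. An IP and its input come from the same mouse. The sampling of cells in which Cre acted and the share of a transcript on ribosomes cannot be told apart in these bulk libraries.

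**Figure D1:**
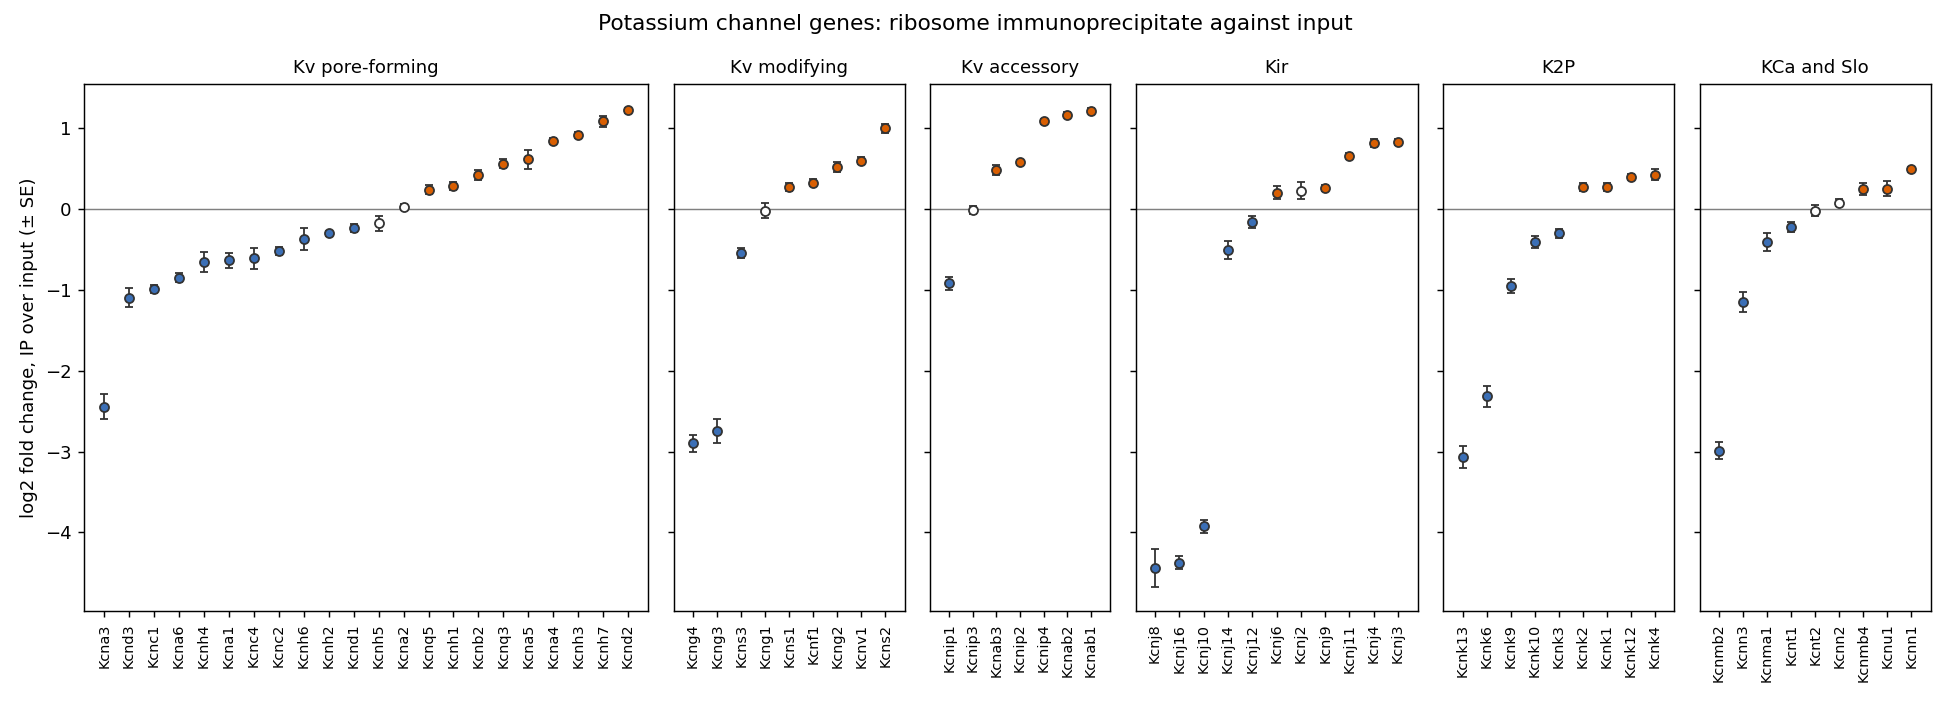
Log2 fold change of members in IPs over inputs (vertical axis, with its SE), grouped by class and ordered within it. Orange points are higher and blue points lower by edgeR at an adjusted p under 0.05, and open points did not pass. Values run from -4.44 for Kcnj8 to 1.23 for Kcnd2, and every class holds points on both sides of 0.

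Among the 26 pore-forming Kv genes 12 were higher in IPs, 12 lower and 2 did not pass. Kcnd2, the main pore-forming subunit of the dendritic A-type current of CA1 pyramidal cells (transcript ENSMUST00000081542), had 333, 343 and 388 CPM (lowest, median and highest) in the 12 IPs, against 136, 154 and 158 CPM in the 12 inputs. The fractions did not overlap, and the log2 fold change was 1.23 (SE 0.031, edgeR adjusted p 2.1e-20). Kcnd3, a related A-type subunit known in the hippocampus from interneurons, had 7.62, 13.2 and 16.7 CPM in IPs against 18.5, 28.5 and 30.6 CPM in inputs. It did not overlap either and went the other way (log2 -1.09, SE 0.11, edgeR adjusted p 2.3e-08). Kcnd1, the remaining gene of this family, was at -0.23 (edgeR adjusted p 0.00017).

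The Shaker-type genes also split. Kcna4, which forms inactivating channels of axons and terminals, had 41.1, 49.2 and 58.5 CPM in IPs against 24.6, 28.0 and 30.8 CPM in inputs (log2 0.84, SE 0.039, edgeR adjusted p 2e-15). Kcna1 and Kcna6, axonal subunits of the same family, were lower at -0.63 and -0.85 (edgeR adjusted p 5.3e-06 and 4.8e-12). The Kcna1 call was lost with lane as a covariate (-0.57, edgeR adjusted p 0.083). Kcna2, their common partner in axons, had 252, 298 and 348 CPM in IPs and 267, 290 and 318 CPM in inputs, a log2 difference of 0.03 that did not pass (edgeR adjusted p 0.45) and turned to -0.28 under total-count scaling. Kcna3, best known from lymphocytes and microglia, fell to 0.529, 1.14 and 2.43 CPM in IPs, against 4.04, 6.96 and 8.15 CPM in inputs (log2 -2.44, SE 0.16, edgeR adjusted p 2.4e-12). Kcna5 rose by 0.62 at 1.68 to 3.50 CPM in IPs against 1.08 to 2.44 CPM in inputs, with overlap.

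Kcnb2, a delayed rectifier, was higher (0.42, edgeR adjusted p 9.5e-07), and with lane as a covariate it no longer passed (0.23, edgeR adjusted p 0.27). Kcnc1 and Kcnc2 encode rapidly gating channels known from fast-spiking interneurons. Kcnc1 had 37.1, 45.4 and 54.8 CPM in IPs against 82.0, 90.8 and 99.1 CPM in inputs (log2 -0.99, SE 0.052, edgeR adjusted p 2.2e-14), and Kcnc2 was at -0.52. The 2 fractions did not overlap for either gene. Kcnc4 was lower at -0.61 (edgeR adjusted p 0.00037), but its IPs spread from 26.0 to 86.9 CPM against 78.0 to 98.0 CPM in inputs, and with lane as a covariate the sign turned (0.04, edgeR adjusted p 0.92).

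Kcnq3 and Kcnq5 encode subunits of the M-current, which restrains repetitive firing. Kcnq3 had 335, 451 and 528 CPM in IPs against 223, 310 and 343 CPM in inputs, with overlap (log2 0.56, SE 0.055, edgeR adjusted p 2.8e-09), and with lane as a covariate it was at 0.36 (edgeR adjusted p 0.053). Kcnq5 was at 0.24 (0.07 at an edgeR adjusted p of 0.77 with lane, -0.06 under total-count scaling). In the ether-a-go-go family Kcnh7 was at 1.09 and Kcnh3 at 0.92, both without overlap, and Kcnh1 was at 0.28. Kcnh2, which carries the rapid delayed rectifier of the heart, was lower at -0.30, Kcnh4 was at -0.65 and Kcnh6 at -0.37. Kcnh5 did not pass (-0.17, edgeR adjusted p 0.082).

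**Figure D2:**
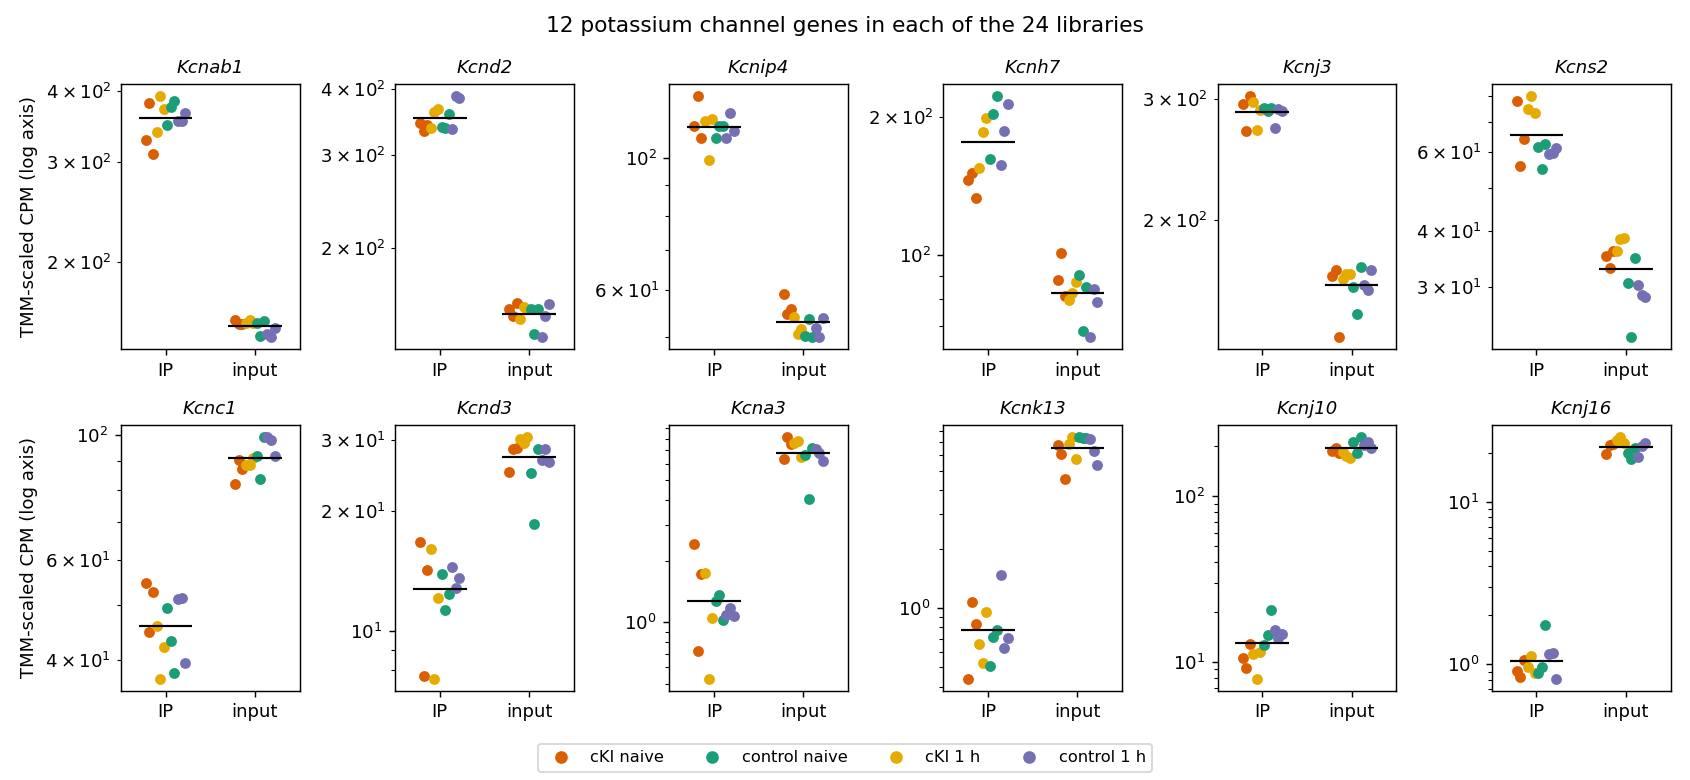
TMM-scaled CPM of 12 members (log axis, 1 panel a gene) in each of the 12 IPs and 12 inputs. Colours give genotype and training state and the black line is the mean. Kcnab1, Kcnd2, Kcnip4, Kcnh7, Kcnj3 and Kcns2 lie higher in every IP than in any input, and Kcnc1, Kcnd3, Kcna3, Kcnk13, Kcnj10 and Kcnj16 lie lower.

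The accessory Kv genes were the class with the largest share of members higher, 5 of 7, at a median log2 fold change of 0.58. Kcnab1, a beta subunit that speeds inactivation of Shaker-type channels, had 310, 361 and 393 CPM in IPs against 147, 156 and 158 CPM in inputs (log2 1.22, SE 0.031, edgeR adjusted p 3.1e-20). Kcnab2 was at 1.17 and Kcnab3 at 0.48, so that the 3 beta subunits were all higher, and only Kcnab3 overlapped between fractions. The Kcnip genes encode calcium-binding partners of A-type channels. Kcnip4 had 99.2, 113 and 127 CPM in IPs against 50.0, 52.8 and 59.2 CPM in inputs (log2 1.09, SE 0.033, edgeR adjusted p 6.8e-19), and Kcnip2 was at 0.58. Kcnip1, known in the hippocampus from interneurons, fell to 5.54, 9.04 and 14.4 CPM in IPs, against 16.2, 17.1 and 20.5 CPM in inputs (log2 -0.92, SE 0.082, edgeR adjusted p 6.1e-10). Kcnip3, which is also known as a calcium-dependent repressor of transcription, was at -0.01 and did not pass (edgeR adjusted p 0.81).

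Modifying Kv subunits split into 5 higher, 3 lower and 1 that did not pass. Kcns2 had 55.1, 62.1 and 80.3 CPM in IPs against 23.1, 33.9 and 38.5 CPM in inputs, without overlap (log2 1.00, SE 0.055, edgeR adjusted p 6.1e-14). Kcnv1 had 56.1, 66.5 and 79.3 CPM in IPs against 36.6, 43.1 and 52.8 CPM in inputs (log2 0.60, SE 0.039, edgeR adjusted p 1.2e-12). Kcng2 was at 0.52, Kcnf1 at 0.33 and Kcns1 at 0.27. The lower ones were Kcng4 at -2.90, Kcng3 at -2.74 and Kcns3 at -0.54, each without overlap. Kcng4 had 0.510, 1.07 and 1.40 CPM in IPs against 6.32, 7.46 and 8.73 CPM in inputs. Kcng1 was at -0.02 (edgeR adjusted p 0.86), with IPs from 37.9 to 74.6 CPM around inputs from 49.2 to 68.0 CPM.

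Inward rectifiers showed the widest range, with 5 genes higher, 5 lower and 1 that did not pass. Kcnj3, Kcnj6 and Kcnj9 encode G-protein-gated channels that carry slow inhibitory currents of pyramidal cells. Kcnj3 had 269, 290 and 303 CPM in IPs against 135, 165 and 171 CPM in inputs (log2 0.83, SE 0.035, edgeR adjusted p 3.8e-16). Kcnj9 was at 0.26 and Kcnj6 at 0.21 (-0.04 and -0.10 under total-count scaling), and Kcnj6 did not pass with lane as a covariate (0.05, edgeR adjusted p 0.87) or with DESeq2 size factors (0.13, edgeR adjusted p 0.13). Kcnj11, the pore of the ATP-sensitive channel of neurons, had 59.8, 69.6 and 87.5 CPM in IPs against 42.7, 45.1 and 47.8 CPM in inputs (log2 0.66, SE 0.039, edgeR adjusted p 1.9e-13). The strong rectifier Kcnj4 was at 0.82. Kcnj12 was at -0.16 and Kcnj14 at -0.50, also strong rectifiers, and Kcnj2 was at 0.23 (edgeR adjusted p 0.055, and 0.21 at an edgeR adjusted p of 0.036 with the mouse as a block).

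Kcnj10, the main potassium-buffering channel of astrocytes (transcript ENSMUST00000056136), fell to 7.93, 12.7 and 20.6 CPM in IPs, against 169, 191 and 227 CPM in inputs (log2 -3.93, SE 0.077, edgeR adjusted p 5.7e-21). Its partner Kcnj16 fell to 0.817, 0.960 and 1.74 CPM in IPs, against 18.4, 22.2 and 25 CPM in inputs (log2 -4.38, SE 0.082, edgeR adjusted p 8.5e-23). Astrocyte markers moved the same way in all 7 of 7 genes, between -2.33 for Slc1a2 and -4.29 for Gja1. Kcnj8, the ATP-sensitive channel of pericytes and vascular muscle, fell to 0.0297, 0.0699 and 0.250 CPM in IPs, against 1.42, 2.23 and 3.19 CPM in inputs. The IP values of Kcnj8 rest on a few counts in each library, and its estimate of -4.44 has the widest error of the class (SE 0.23, edgeR adjusted p 2.2e-14).

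K2P genes, which carry leak currents, divided into 4 higher and 5 lower. Kcnk13, known from microglia, fell to 0.439, 0.708 and 1.47 CPM in IPs, against 4.53, 6.77 and 7.42 CPM in inputs (log2 -3.07, SE 0.13, edgeR adjusted p 6.1e-16), and Kcnk6 was at -2.32. Microglia markers fell in 7 of 7 genes, at a median of -4.69. The acid-sensitive channels Kcnk9 and Kcnk3 were at -0.95 and -0.30, and the mechanosensitive Kcnk10 at -0.40. Its relatives Kcnk2 and Kcnk4 were higher, at 0.27 and 0.43, as were Kcnk1 at 0.28 and Kcnk12 at 0.40, although Kcnk1 and Kcnk2 turned to -0.03 under total-count scaling. With lane as a covariate Kcnk3 (-0.17, edgeR adjusted p 0.37), Kcnk2 (0.22, 0.17) and Kcnk4 (0.38, 0.13) did not pass. Only Kcnk12 of the higher genes had no overlap, with 12.2, 14.7 and 18.2 CPM in IPs against 10.4, 11.5 and 12.1 CPM in inputs.

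Of the calcium-activated and Slo genes 3 were higher, 4 lower and 2 did not pass. Kcnn1, a small-conductance channel gene, had 21.4, 23.9 and 26.8 CPM in IPs against 15.9, 17.0 and 19.1 CPM in inputs (log2 0.49, SE 0.033, edgeR adjusted p 1.5e-12). Its relative Kcnn3 fell to 1.57, 3.02 and 3.94 CPM in IPs, against 3.35, 6.55 and 8.23 CPM in inputs (log2 -1.15, SE 0.12, edgeR adjusted p 1.6e-08), and Kcnn2 did not pass (0.08, edgeR adjusted p 0.12). The large-conductance channel gene Kcnma1 was at -0.41 (edgeR adjusted p 0.0019), and with lane as a covariate at -0.65 (edgeR adjusted p 0.10). Its 2 beta subunits went opposite ways. Kcnmb4, the neuronal one, was at 0.25 (0.26 at an edgeR adjusted p of 0.38 with lane, -0.05 under total-count scaling), while Kcnmb2, which makes the channel inactivate, fell to 0.255, 0.535 and 0.677 CPM in IPs, against 3.43, 4.24 and 4.92 CPM in inputs (log2 -2.99, SE 0.11, edgeR adjusted p 1.5e-17). The sodium-activated Kcnt1 was at -0.22 and Kcnt2 at -0.02. Kcnu1, best known from sperm, was at 0.25 and lost its call without replicate 2 of the naive cKI IPs (edgeR adjusted p 0.077). Kcnd3, Kcnab3 and Kcnmb4 have annotated antisense partners, whose counts were 3 to 23 for Kcnd3os, 0 to 3 for Kcnab3os and 26 to 65 for Kcnmb4os2 in each library. Since the strand setting of the counts is not given, reads of these genes and their partners cannot be told apart.

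Several members are direct neighbours in the genome, and in 3 pairs 1 gene was much lower in IPs while the other was not. These pairs were chosen after their values were seen, and gene order is that of RefSeq on GRCm38.p6. Kcnj9 (0.26) lies beside Kcnj10 (-3.93), Kcnj2 (0.23) beside Kcnj16 (-4.38), and Kcna2 (0.03) beside Kcna3 (-2.44). Kcnj2 and Kcna2 did not pass the test (edgeR adjusted p 0.055 and 0.45), and Kcnj9 turned to -0.04 under total-count scaling. The 250 bases before the start of Kcnj10, Kcnj9, Kcna3 and Kcna2 are shown because these genes sit side by side and differ in their IP to input ratio. RefSeq (GRCm38.p6) places them at chr1:172340960-172341209 on the plus strand for Kcnj10, chr1:172329323-172329572 on the minus strand for Kcnj9, and chr3:107035912-107036161 and chr3:107101317-107101566 on the plus strand for Kcna3 and Kcna2. Each is written 5′ to 3′ on the gene's strand, with TATA box (TATAAA) and GC box (GGGCGG) matches on either strand in capitals.
Kcnj10: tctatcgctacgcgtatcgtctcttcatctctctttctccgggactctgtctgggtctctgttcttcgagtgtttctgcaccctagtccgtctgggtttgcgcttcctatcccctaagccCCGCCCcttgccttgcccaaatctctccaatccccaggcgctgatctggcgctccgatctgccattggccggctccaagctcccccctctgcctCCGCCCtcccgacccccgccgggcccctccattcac
Kcnj9: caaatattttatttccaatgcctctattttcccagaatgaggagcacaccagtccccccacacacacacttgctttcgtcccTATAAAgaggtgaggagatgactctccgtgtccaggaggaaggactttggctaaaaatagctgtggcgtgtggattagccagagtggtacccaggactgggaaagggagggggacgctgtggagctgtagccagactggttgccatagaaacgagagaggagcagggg
Kcna3: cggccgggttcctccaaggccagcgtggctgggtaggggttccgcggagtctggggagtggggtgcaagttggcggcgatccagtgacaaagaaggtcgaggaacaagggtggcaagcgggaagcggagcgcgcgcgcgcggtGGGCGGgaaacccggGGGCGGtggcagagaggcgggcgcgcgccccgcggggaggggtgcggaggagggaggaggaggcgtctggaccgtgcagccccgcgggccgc
Kcna2: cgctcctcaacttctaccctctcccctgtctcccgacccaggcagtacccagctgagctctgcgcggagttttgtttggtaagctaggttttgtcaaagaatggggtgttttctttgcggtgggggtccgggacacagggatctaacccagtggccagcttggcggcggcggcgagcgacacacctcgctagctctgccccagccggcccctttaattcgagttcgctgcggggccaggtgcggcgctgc

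Kcnj10 had 17 CpG dinucleotides in this window and a GC content of 62.0%, against 5 and 52.0% for Kcnj9. Kcna3 had 31 and 74.4%, against 18 and 62.4% for Kcna2, and the medians over 32851 RefSeq promoters of the same length were 6 and 52.4%. Kcnj9 held 1 TATA box, where 12.4% of all promoters held at least 1. Kcnj10 and Kcna3 each held 2 GC boxes, where 32.7% of all promoters held at least 1, and Kcna2 held neither motif. The cyclic AMP response element TGACGTCA (1.55% of promoters) and the E-box CACGTG (6.02%) were searched on both strands as well and did not occur in these windows. A promoter entry existed for 49 of the 71 members.

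Genes that work with these channels but lie outside the name rule divided in the same comparison. Of 21 partner genes 19 could be tested, of which 11 were higher and 5 lower in IPs at a median of 0.24. Abcc8, which joins Kcnj11 in the neuronal ATP-sensitive channel, was at 0.69, and Abcc9, which joins Kcnj8 in vessels, at -4.39. Dpp6, a transmembrane partner of Kcnd2, was at 0.75 and its relative Dpp10 at -1.27 (edgeR adjusted p 2.9e-18 and 8e-09). Cntnap2, which clusters Shaker-type channels along axons, was at 0.82, and the scaffold gene Dlg4 at 0.98. Among genes of the HCN channels, which pass an inward current on hyperpolarisation, Hcn4 was at -1.06 and the accessory subunit gene Pex5l at 0.77. Of 11 genes of potassium pumps and cotransporters 4 were higher and 6 lower. Slc12a5, the chloride extruder of neurons, was at 0.56, and Slc12a2, a cotransporter that brings chloride in, at -2.20.

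Genotype was compared first in IPs, which asks what changed on tagged ribosomes when eIF2α could not be phosphorylated. In naive mice 6 members differed between cKI and control IPs, 5 of them lower, among which were the leak channel Kcnk3, the sodium-activated Kcnt1, the strong rectifier Kcnj12 and the beta subunit Kcnab3. The modifying subunit Kcng2 was higher. Of 70 members tested (Kcnj8 was too low in IPs) this is 8.57%, and 3.7% of all 15238 genes passed, 2.5% lower and 1.2% higher. An unadjusted p under 0.05 was seen for 20 members (28.6%) and for 22.3% of all genes. The members' median log2 fold change was -0.07 and that of all genes 0.00. No call remained with lane as a covariate, where the adjusted p by edgeR was 0.73 to 0.83 for these 5 genes and the log2 fold changes were -0.69 for Kcnk3, -0.85 for Kcnt1, -0.37 for Kcnj12, -0.29 for Kcnab3 and 0.20 for Kcng2. In naive mice all cKI IPs ran in lane 5 and all control IPs in lane 6, so lane is separated from genotype by the cKI libraries at 1 h alone.

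Kcnk3 had 9.79, 11.5 and 10.7 CPM in naive cKI IPs, against 13.6, 17.1 and 15.5 CPM in naive control IPs. The groups did not overlap, and the log2 fold change was -0.53 (SE 0.11, edgeR adjusted p 0.022). Kcnt1 had 22.8, 22.6 and 26.5 CPM in naive cKI IPs, against 36.9, 47.3 and 40.7 CPM in naive control IPs. Each cKI value lay below each control value (log2 -0.80, SE 0.16, edgeR adjusted p 0.025). Kcnj12 had 3.98, 3.51 and 4.22 CPM in naive cKI IPs, against 5.77, 6.32 and 7.06 CPM in naive control IPs, again apart (log2 -0.71, SE 0.16, edgeR adjusted p 0.034). Kcnab3 had 33.1, 41.4 and 34.0 CPM in naive cKI IPs, against 46.2, 58.6 and 51.3 CPM in naive control IPs (log2 -0.53, SE 0.13, edgeR adjusted p 0.041). Kcng2 had 56.1, 53.7 and 60.0 CPM in naive cKI IPs, against 46.7, 32.9 and 32.7 CPM in naive control IPs (log2 0.60, SE 0.15, edgeR adjusted p 0.047), and its control replicate 1 lay closest to the cKI values.

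**Figure D3:**
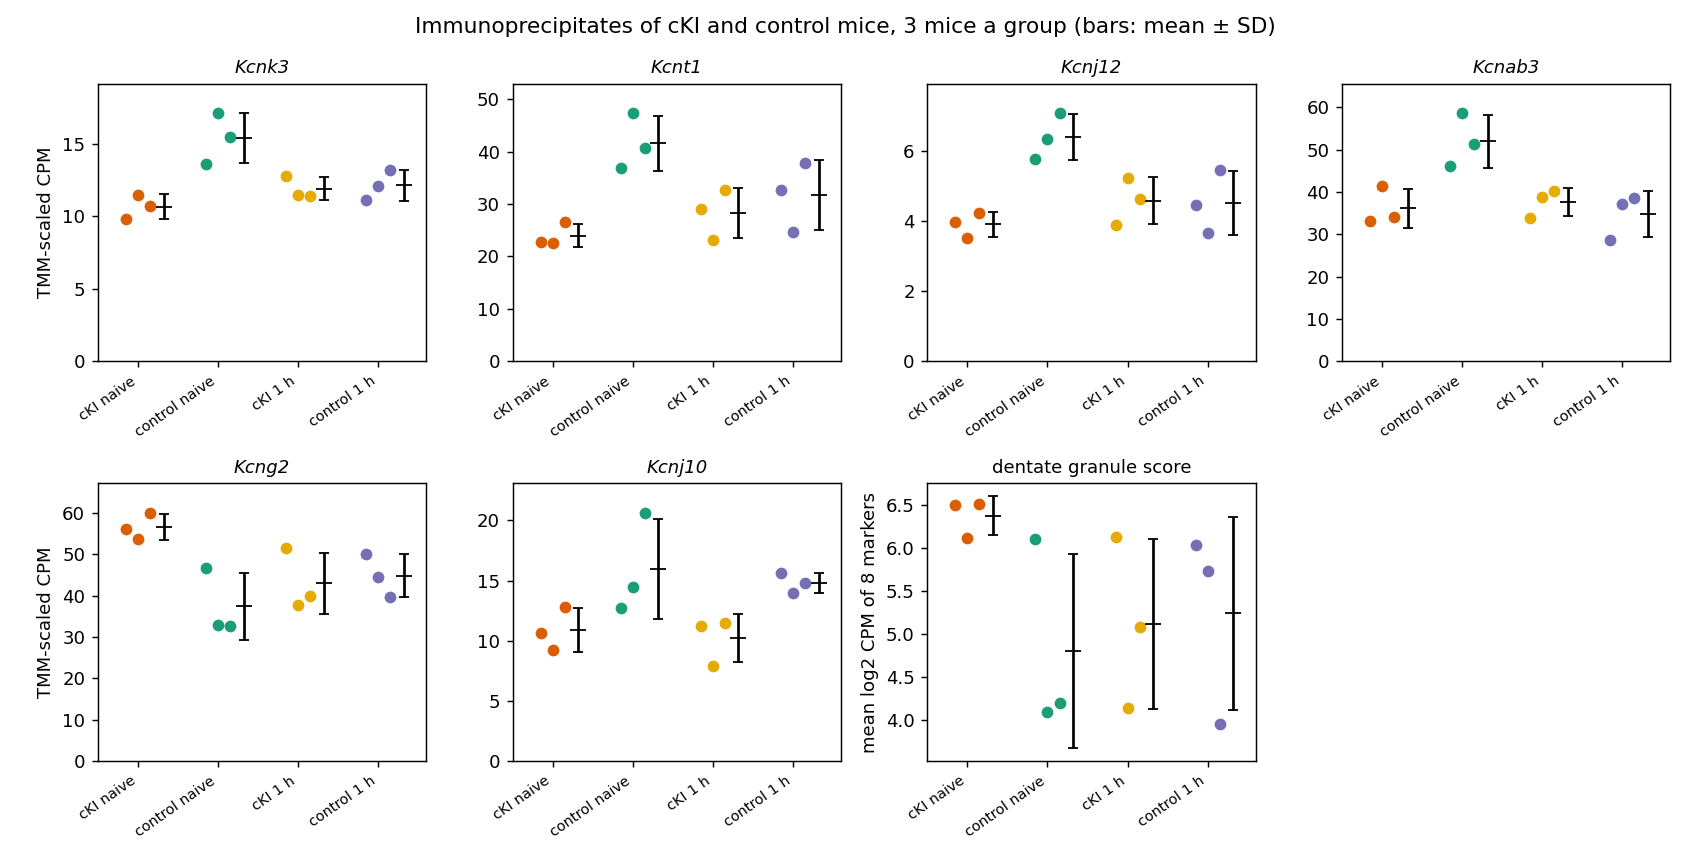
TMM-scaled CPM in IPs for 6 members and, in the last panel, the dentate granule score (mean log2 CPM of 8 markers), 3 mice a group, with mean and SD beside the points. In naive mice the cKI points of Kcnk3, Kcnt1, Kcnj12 and Kcnab3 lie below the control points and those of Kcng2 above, and the granule scores of the naive groups touch at 6.11 and 6.10.

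Each of the 5 calls was lost in 4 to 7 of 12 fits that left out 1 IP, and the number of members called ran from 0 to 11. None was called without replicate 1 of the naive cKI IPs or replicates 2 or 3 of the naive control IPs, and 11 were called without replicate 1 of the naive control IPs. Those libraries also differed in levels of dentate granule cell markers. Between naive cKI and control IPs 0 of 8 of these markers passed by edgeR, at a median log2 fold change of 1.32. The granule score, the mean log2 CPM of 8 such markers, was 6.50, 6.11 and 6.51 in naive cKI IPs and 6.10, 4.09 and 4.20 in naive control IPs, while inputs lay between 5.22 and 5.48. With this score as a covariate none of these 5 passed, at edgeR adjusted p of 0.19 to 0.29 and log2 fold changes of -0.42 for Kcnk3, -0.68 for Kcnt1, -0.45 for Kcnj12, -0.31 for Kcnab3 and 0.29 for Kcng2. Its part in the result was not tested further. In 4 members naive cKI IPs lay above naive control IPs and in 15 below, and 26.7% of all genes had groups without overlap.

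At 1 h after conditioning no member differed between cKI and control IPs by edgeR. There, 5 of 70 had an unadjusted p under 0.05 against 5.56% of all genes, 0.0591% of which passed adjustment. The smallest p belonged to Kcns2, with 75.1, 80.3 and 73.5 CPM in cKI IPs against 59.6, 59.9 and 61.3 CPM in control IPs (log2 0.35, SE 0.099, edgeR adjusted p 0.49). The groups did not overlap. Of the 70 members 3 lay above and 6 below without overlap, and the share of all genes is not given. Kcnv1 was at 0.24 and Kcnj10 at -0.53 (edgeR adjusted p 0.74 and 0.78).

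Over both training states no member passed in IPs either, where 1.69% of all genes did, and 19 of 70 had an unadjusted p under 0.05 against 18.5% of all genes. The smallest p belonged to Kcnt1 (log2 -0.48, SE 0.11, edgeR adjusted p 0.057), Kcnj10 (-0.54, SE 0.13, 0.059) and Kcnk3 (-0.28, SE 0.075, 0.085). All 3 passed with the Wald test of DESeq2, which called 6 members (adjusted p 0.0027, 0.0038 and 0.031). Kcnj10 had 10.6, 9.22 and 12.8 CPM in naive cKI IPs and 11.2, 7.93 and 11.5 CPM in cKI IPs at 1 h, against 12.7, 14.5 and 20.6 CPM in naive control IPs and 15.6, 14.0 and 14.8 CPM in control IPs at 1 h. The cKI and control ranges overlapped by 1 pair of naive libraries. Summed astrocyte markers were 530 to 649 CPM in naive cKI IPs and 585 to 674 CPM in cKI IPs at 1 h, against 628 to 746 CPM in naive control IPs and 660 to 696 CPM in control IPs at 1 h. None of the 7 astrocyte markers passed in this contrast, their median was -0.08, and their part in the Kcnj10 values was not tested.

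In inputs, 1 member differed between genotypes, the modifying subunit Kcnv1 (transcript ENSMUST00000022967). It had 52.8, 46.3 and 47.7 CPM in naive cKI inputs and 43.9, 46.7 and 47.4 CPM in cKI inputs at 1 h. Naive control inputs had 36.6, 38.3 and 42.2 CPM, and control inputs at 1 h had 37.9, 41.8 and 40.3 CPM. All 6 cKI inputs lay above all 6 control inputs, and over both training states the log2 fold change was 0.29 (SE 0.046, edgeR adjusted p 0.0057). It is 1 of 71 members (1.41%), and 3.15% of all 17232 genes passed. Its call held in each of 12 fits that left out 1 input (highest edgeR adjusted p 0.025) and with lane as a covariate (log2 0.42, edgeR adjusted p 0.049). In lane 4 alone, the naive cKI inputs had 46.3 to 52.8 CPM against 36.6 and 38.3 CPM in the 2 naive control inputs, while at 1 h lane and genotype cannot be told apart. Groups without overlap over both training states were seen for 3 members, the others being Kcnt2 (0.20, edgeR adjusted p 0.18) and Kcnn1 (-0.11, edgeR adjusted p 0.16), and for 3.55% of all genes.

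Within naive inputs Kcnv1 was again the single member called (log2 0.36, SE 0.065, edgeR adjusted p 0.020), where 0.859% of all genes passed, and with lane it was at 0.43 (edgeR adjusted p 0.014). Without naive cKI replicate 1 or naive control replicate 1 the adjusted p by edgeR was 0.080 and 0.068. At 1 h no member passed, where 0.267% of all genes did and 7 members had an unadjusted p under 0.05 against 8.98% of all genes. Kcnv1 was at 0.22 there and Kcns2 at 0.39 (both edgeR adjusted p 0.28), each without overlap. Of 71 members 13 lay above and 7 below without overlap at 1 h, and the share of all genes is not given. Kcns2, a modifying subunit like Kcnv1, had 35.2, 33.1 and 36.0 CPM in naive cKI inputs and 36.1, 38.4 and 38.5 CPM in cKI inputs at 1 h, against 30.6, 23.1 and 34.8 CPM in naive control inputs and 30.3, 28.7 and 28.5 CPM in control inputs at 1 h. The 7 oligodendrocyte markers were all lower in naive cKI inputs, with sums of 3660 to 4270 CPM against 5190 to 5620 CPM in naive control inputs. Summed excitatory neuron markers were 5820 to 6530 CPM in naive cKI inputs and 5650 to 6400 CPM in naive control inputs. Their part in the Kcnv1 values was not tested.

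**Figure D4:**
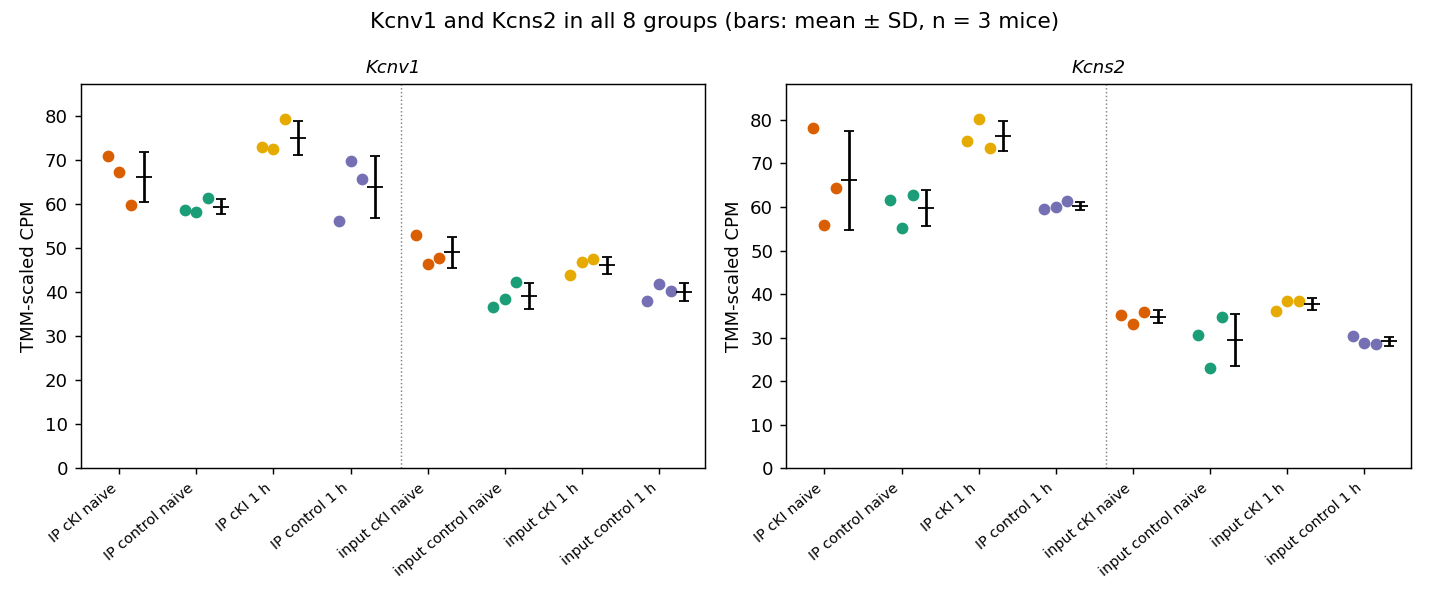
TMM-scaled CPM of Kcnv1 and Kcns2 in the 8 groups of 3 mice, with mean and SD beside the points, IPs left of the dotted line and inputs right of it. All 6 cKI inputs of Kcnv1 (43.9 to 52.8 CPM) lie above all 6 control inputs (36.6 to 42.2 CPM). At 1 h the cKI points of Kcns2 lie above the control points in both fractions, and Kcns2 did not pass in either. The share of all genes without overlap at 1 h is not given.

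Among genes outside the name rule, Pex5l was lower in naive cKI IPs (-0.47, edgeR adjusted p 0.043), as was Cntn2, an axonal adhesion partner of Shaker-type channels (-0.55, edgeR adjusted p 0.018). Cntn2 was 1 of 18 partner genes tested, and 0 of 11 pump and cotransporter genes passed there. Cntn2 was also lower over both training states (-0.40, edgeR adjusted p 0.018). Both genes followed the granule score in IPs, with slopes of -0.17 for Pex5l and -0.14 for Cntn2 (edgeR adjusted p 0.00055 and 0.0075), and that score was 6.11 to 6.51 in naive cKI IPs and 4.09 to 6.10 in naive control IPs. Its part in these calls was not tested. In inputs over both training states Abcc8 was higher (0.19, edgeR adjusted p 0.020), while Atp1b2 and Lrrc38 were lower (-0.19 and -0.89, edgeR adjusted p 0.0089 and 0.032).

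Training changed no member that passed the test, in IPs or inputs of either genotype. In control IPs, all of which ran in lane 6, 14 of 70 members had an unadjusted p under 0.05 at 1 h against naive, where 10.3% of all genes did and 0.328% passed adjustment. Kcnab3 fell short of the threshold with 28.6, 37.3 and 38.5 CPM at 1 h against 46.2, 58.6 and 51.3 CPM in naive control IPs (log2 -0.58, SE 0.13, edgeR adjusted p 0.077). Kcnk12 had 14.5, 13.5 and 13 CPM at 1 h against 18.2, 16.7 and 17.5 CPM in naive control IPs (log2 -0.35, SE 0.082, edgeR adjusted p 0.091). Kcnj9 had 141, 142 and 128 CPM at 1 h against 185, 163 and 158 CPM in naive control IPs (log2 -0.30, SE 0.071, edgeR adjusted p 0.092). These 3 were named for the smallest p, and their groups did not overlap. Of the 70 members 2 lay above and 17 below without overlap, and the share of all genes is not given. All 3 passed with the Wald test of DESeq2 (adjusted p 0.0025, 0.015 and 0.0069) and with the granule score as a covariate (edgeR adjusted p 0.034, 0.046 and 0.025).

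In cKI IPs 17 of 70 members had an unadjusted p under 0.05 at 1 h against naive, where 12.8% of all genes did and 0.0459% passed adjustment. Kcnj14 had 1.29, 1.96 and 1.24 CPM at 1 h against 0.979, 0.638 and 0.653 CPM in naive cKI IPs (log2 1.00, SE 0.26, edgeR adjusted p 0.23). Kcnj4 had 120, 110 and 110 CPM at 1 h against 139, 161 and 154 CPM in naive cKI IPs (log2 -0.41, SE 0.12, edgeR adjusted p 0.26). Granule scores were 6.12, 4.14 and 5.08 in cKI IPs at 1 h against 6.50, 6.11 and 6.51 in naive cKI IPs, and with the score as a covariate Kcnj4 was at -0.22 and Kcnj14 at 0.75 (both edgeR adjusted p 0.76).

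In inputs 4 of 71 members of control mice and 5 of cKI mice had an unadjusted p under 0.05 for training, where 11.7% and 5.27% of all genes did and 0.737% and 0.0174% passed adjustment. The smallest p in control mice belonged to Kcng1 (0.29, edgeR adjusted p 0.13), Kcnj4 (-0.17, edgeR adjusted p 0.29) and Kcnt1 (-0.16, edgeR adjusted p 0.34). In cKI mice it belonged to Kcna4 (-0.19), Kcnj12 (-0.34) and Kcnj4 (-0.15), each at an edgeR adjusted p of 0.92. Kcng1 passed with the Wald test of DESeq2 (0.30, adjusted p 0.037).

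The difference of the training response between genotypes passed for no member. In IPs 14 of 70 members had an unadjusted p under 0.05, against 9.34% of all genes and 0.0131% that passed. The interaction was 0.65 for Kcnab3, 0.52 for Kcnk3 and 0.74 for Kcnj12 (edgeR adjusted p 0.28, 0.31 and 0.34), and none passed. By group mean, naive control IPs were the highest of the 4 IP groups for these genes, an order that the interaction does not test. In inputs 3 of 71 had an unadjusted p under 0.05, against 4.82% of all genes and 0.0348% that passed, with Kcnj12 at -0.48, Kcnip4 at -0.15 and Kcnn2 at -0.18. The ratio of IP to input also differed with genotype or training for no member. By genotype 13 of 71 had an unadjusted p under 0.05 (15.6% of all genes, 0.0229% passed), led by Kcng3 at -1.30 (edgeR adjusted p 0.22), Kcnh5 at -0.56 and Kcnb2 at -0.37 (both edgeR adjusted p 0.24). By training there were 6 of 71 (4.13% of all genes, 0.00573% passed), led by Kcnk12 at -0.27 (edgeR adjusted p 0.73).

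Members varied more among IPs than among inputs. The coefficient of variation over the 12 IPs had a median of 14.5% over members, against 8.68% over the 12 inputs, and was the larger of the 2 in 58 of 71 members. The same values over all genes are not given, so this is not shown to be particular to the members. The granule score ranged over 2.57 log2 units in IPs and 0.26 in inputs. Its values in IPs fall in separate stretches, with 4 libraries at 3.95 to 4.20, 1 at 5.08 and 7 at 5.73 to 6.51, so no correlation is given. In a fit that holds the group means and adds the score, which was chosen after seeing the data, 13 of 70 members had a slope by edgeR, 11 upward and 2 downward, where 5.19% of all genes did (3.78% upward and 1.41% downward).

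Kcng1, a modifying subunit, had 65.5, 67.2 and 74.6 CPM in naive cKI IPs, 69.0, 45.2 and 45.4 CPM in naive control IPs, 66.3, 37.9 and 52.1 CPM in cKI IPs at 1 h, and 70.4, 63.7 and 41.8 CPM in control IPs at 1 h. The 4 lowest values belong to the 4 IPs of lowest score, and the slope was 0.35 log2 per unit of score (SE 0.03, edgeR adjusted p 8e-06). The strong rectifier Kcnj2 had a slope of 0.38 (edgeR adjusted p 6.4e-05), Kcnc4 of 0.48 (6.6e-05), Kcng2 of 0.21 (0.0013) and Kcnk1 of 0.17 (0.0026). These 5 and Kcnc1 and Kcnj4 also passed with lane as a covariate, where 7 of 70 members and 2.84% of all genes did. Kcnh7 (-0.18, edgeR adjusted p 0.0078) and Kcnc2 (-0.16, 0.036) had downward slopes that did not pass with lane (edgeR adjusted p 0.054 and 0.15). Kcng2 is 1 of the 6 genes that differed between naive cKI and control IPs, and Kcnab3, another, was at -0.14 (edgeR adjusted p 0.11).

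**Figure D5:**
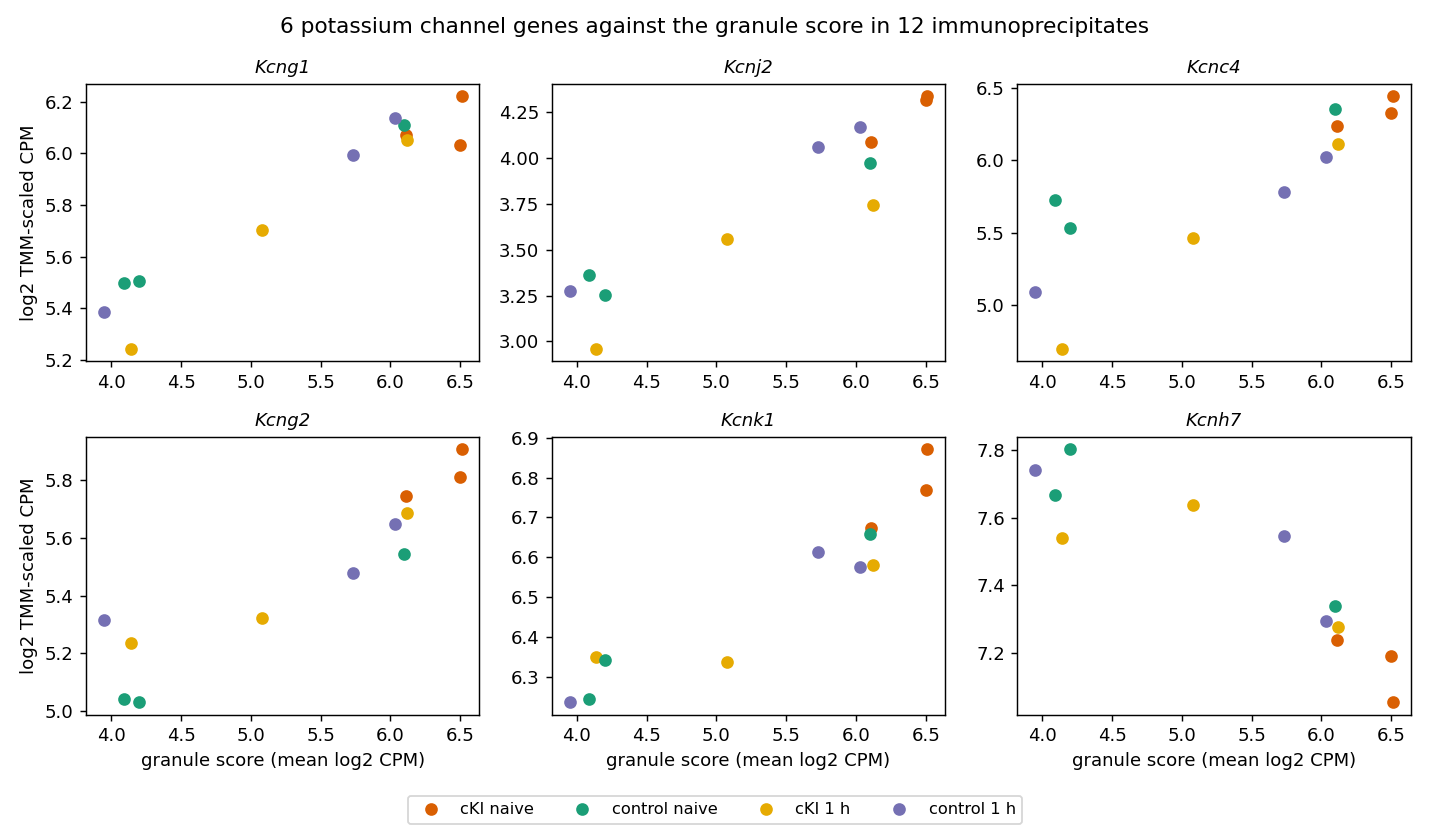
Log2 TMM-scaled CPM of 6 members (vertical axes, which do not start at 0) against the granule score (horizontal axis, mean log2 CPM of 8 markers) in the 12 IPs, coloured by genotype and training state. Kcng1, Kcnj2, Kcnc4, Kcng2 and Kcnk1 lie higher at scores of 5.73 to 6.51 than at 3.95 to 4.20, and Kcnh7 overlaps between these stretches (187 CPM at 5.73, 186 CPM at 4.14) with a downward slope of -0.18 log2 per unit.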

How the data were processed

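Poly(A) RNA of 12 IPs and 12 inputs of mouse hippocampus was sequenced in pairs of reads with a kit that keeps strand, per the labels' protocols. The values are raw counts per gene as deposited by the authors. Bowtie, cutadapt and DESeq2 appear in the submitters' processing notes with no role attached, and the counting tool, genome build and strand setting were not given in the sources used here. Of 51733 symbols 47598 matched a gene name table, and 26 had been turned into dates.

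The whole table was fitted with edgeR 4.0.16 under R 4.3.3 (limma 3.58.1), using TMM, filterByExpr and the robust quasi-likelihood test. P-values were adjusted over all genes tested by Benjamini-Hochberg, with a threshold of 0.05. Each fraction was fitted alone with 1 mean per group, and both together for IP against input, and the fits were tested on simulated data. The mouse number in the labels pairs an IP with its input. With mouse as a block 35 members were higher and 29 lower in IPs, against 34 and 30 without it. Kcnj2 was gained among the higher, and a call among the lower was lost. Alternatives were the Wald test and the size factors of DESeq2 1.42.0, testing without a filter, lane, a replicate block, another CPM minimum for members and leaving out each library. Total-count scaling and the granule score (prior count 2) were added after seeing the data.

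Genes were named as the 3 highest and 3 lowest called of each class in IPs against inputs, the called members or 3 smallest p elsewhere, and a set of well-known members, and the others were placed by family. Some genes of these families are counted in the totals and not reported here by name. Members, marker lists and partner lists were chosen with earlier results of these data known.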

Additional observations from a re-analysis of the deposited data

Results flagged for a closer look

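Kcnj10 stood out in 1 library. It had 20.6 CPM in replicate 3 of the naive control IPs, while the other 5 control IPs lay between 12.7 and 15.6 CPM, a gap above the critical value of Dixon's test for 6 samples. Summed astrocyte markers were 746 CPM in that library, the highest of the 12 IPs, against 628 to 696 CPM in the other 5 control IPs. Their part in the Kcnj10 value was not tested. Of 8 sets of libraries tested, chance alone flags about 1 in 20.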

How the results depend on the processing

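In IPs against inputs 57 to 66 members were called under every alternative except the lane covariate (42) and a minimum of 5 CPM, which leaves fewer members (50 of 57), and leaving out 1 library gave 63 to 65. Members called for genotype in naive IPs numbered 12 by the DESeq2 Wald test, 0 with lane, 0 with the granule score and 0 to 11 without 1 library. Over both training states in IPs, the number was 1 without a filter, 6 by the Wald test, 1 with the granule score and 0 to 5 without 1 library, the 5 being without replicate 1 of the naive control IPs. For training in control IPs it was 2 without a filter, 3 by the Wald test and 3 with the granule score. In inputs, genotype over both training states gave 2 by the Wald test, 2 with total-count scaling and 1 to 3 without 1 library, with 3 on leaving out naive control replicate 2 or 3. Naive inputs gave 2 by the Wald test and 0 to 1 without 1 library, and inputs at 1 h 0 to 2, the 2 being without naive control replicate 2. The Wald test called 1 for training in control inputs and 1 for the IP to input ratio by genotype. The other contrasts kept a count of 0 in the alternatives run. The shares of all genes called under these alternatives are not given, so no member count among them, here or above, is set against all genes. The cause of these differences was not tested.

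Replicate numbers were not taken to pair mice across groups. Deviations of same-numbered libraries correlated between -0.188 and 0.403, and 7 of 36 correlations were over 0.1. All 7 were between IP groups, and the highest between input groups was 0.082. The replicate block called 2 members for genotype over both training states in IPs (Kcnj10 and Kcnt1) and 1 for training in control IPs (Kcnab3, edgeR adjusted p 0.0086).

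Signs turned in IPs against inputs for small changes. Kcna2 was at -0.04 with DESeq2 size factors and by the Wald test, -0.02 with lane and -0.28 with total counts, and -0.02 to 0.05 without 1 library. Kcnip3 was at 0.01 without a filter, 0.14 with lane and -0.09 to 0.02 without 1 library, and Kcnt2 at 0.01, 0.06 and -0.05 to 0.01. Lane moved Kcnc4 to 0.04 and Kcnn2 to -0.08. Total counts gave Kcnn2 -0.22, Kcnj6 -0.10, Kcnj2 -0.07, Kcnq5 -0.06, Kcnmb4 -0.05, Kcnu1 -0.05, Kcnj9 -0.04, Kcnk1 -0.03, Kcnk2 -0.03 and Kcnh1 -0.02. Counting error limits members near 1 CPM, where 1 count equals up to 0.035 CPM.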
